A study of Mus musculus with 33 samples.

Results

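The clustered histone genes are the mouse genes whose symbols begin with Hist1h, Hist2h, Hist3h or Hist4h, and 58 of the 17982 genes in the deposited count table carry such a symbol. Of these, 52 encode core histones (14 H2A, 16 H2B, 10 H3 and 12 H4 genes) and 6 encode linker histones (H1). They were followed in 9 RNA sequencing libraries, 3 per group, and in the authors' own result tables. The iOB, or induced osteoblasts, were tail-tip fibroblasts of Col2.3GFP mice that had been transduced with lentivirus carrying a transcription factor gene, which the labels do not name, and moved to osteogenic medium on day 5. The calvarial-OB came from calvarial progenitor cells of the skull vault under osteoblast differentiation, and the titles mark them as dataset 2, so what sets these libraries apart as cells and what sets them apart as a dataset cannot be told apart. The fibroblasts were the tail-tip cells from which the iOB were made, frozen after passages in culture. The iOB GFP+ were cells sorted from iOB by the Col2.3GFP reporter, in which a fragment of a type I collagen promoter drives green fluorescent protein in cells of the osteoblast lineage, so that this group is defined by activity of that promoter. The tail-tip fibroblasts and the iOB and iOB GFP+ made from them all carry the reporter. The labels do not give the day of harvest, the age or sex of the mice, whether calvarial-OB carry the reporter, or whether fibroblasts received any virus, and nothing says that replicates came from separate animals or cultures, so p-values measure the spread between these libraries, which may be technical.

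Core histones H2A, H2B, H3 and H4 form the protein spool around which DNA is wound, and the linker histone H1 binds where DNA enters and leaves it. Most clustered histone genes are transcribed mainly while DNA is being copied, and their standard transcripts end in a stem-loop in place of a poly-A tail; the stem-loop is bound by the protein made from Slbp. RNA here was purified by poly-A selection, so a level counts only the molecules that were captured, and in bulk cultures fewer cells that express a gene and less RNA per cell cannot be told apart. In the RefSeq annotation of GRCm38.p6, all 58 symbols matched a gene by a present or former name: 49 lie on chromosome 13, 6 on chromosome 3, 2 on chromosome 11 and 1 on chromosome 6. RefSeq lists more than 1 transcript for 3 of them, with 2 for Hist1h2bc and 3 each for Hist1h2be and Hist1h2bp.

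Many H2A and H2B genes are arranged head to head, so that the short stretch between them serves both. The stretches between the starts of 2 such pairs are shown. They are 2 of 6 pairs, among 9 followed here, with a higher H2A share of pair counts, without overlap, in calvarial-OB than in fibroblasts. The first stretch runs over chr13:22042950-22043197 and the second over chr13:23683960-23684198. Each is on the minus strand of GRCm38.p6 and is read in the direction of the H2A gene. The 250 bases before the starts of Hist1h4i (chr13:22041363-22041612, minus strand), Hist1h4n (chr13:21832198-21832447, minus strand) and Hist1h1c (chr13:23738557-23738806, plus strand) are shown because these genes were lower in both osteoblast cultures. Hist1h4h and Hist3h2a, also called lower in both, are not shown. Sequences are from RefSeq. Capitals mark 4 motifs on either strand: the box CCAAT, the TATA box written as TATAAA, the octamer of histone promoters written as ATTTGCAT and the H1 box written as AAACACA. On the other strand the first of these reads ATTGG and the octamer reads ATGCAAAT. No motif contains another.
Hist1h2ag and Hist1h2bj: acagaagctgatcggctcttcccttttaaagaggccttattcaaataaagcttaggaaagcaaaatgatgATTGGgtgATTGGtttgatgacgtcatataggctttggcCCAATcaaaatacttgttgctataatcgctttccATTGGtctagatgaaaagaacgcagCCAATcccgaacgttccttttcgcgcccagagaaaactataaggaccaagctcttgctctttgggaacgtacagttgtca
Hist1h2ac and Hist1h2bc: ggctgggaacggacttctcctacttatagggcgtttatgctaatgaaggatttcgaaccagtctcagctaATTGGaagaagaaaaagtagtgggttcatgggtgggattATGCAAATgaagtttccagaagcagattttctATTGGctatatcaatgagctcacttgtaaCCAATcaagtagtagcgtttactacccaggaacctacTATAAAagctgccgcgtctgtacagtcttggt
Hist1h4i: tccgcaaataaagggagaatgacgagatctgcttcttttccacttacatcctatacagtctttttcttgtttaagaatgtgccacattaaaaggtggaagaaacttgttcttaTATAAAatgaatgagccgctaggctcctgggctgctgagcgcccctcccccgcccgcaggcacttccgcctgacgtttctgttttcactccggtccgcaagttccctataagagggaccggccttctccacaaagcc
Hist1h4n: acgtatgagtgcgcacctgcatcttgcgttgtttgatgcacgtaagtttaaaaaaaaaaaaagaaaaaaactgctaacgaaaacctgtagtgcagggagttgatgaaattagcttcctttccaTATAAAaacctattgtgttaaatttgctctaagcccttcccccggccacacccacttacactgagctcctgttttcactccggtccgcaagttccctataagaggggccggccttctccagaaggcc
Hist1h1c: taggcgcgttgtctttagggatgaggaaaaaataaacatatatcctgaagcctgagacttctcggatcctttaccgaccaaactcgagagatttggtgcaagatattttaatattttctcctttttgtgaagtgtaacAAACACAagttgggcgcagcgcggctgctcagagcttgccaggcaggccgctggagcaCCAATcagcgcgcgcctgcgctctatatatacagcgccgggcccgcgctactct

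The stretch between Hist1h2ag and Hist1h2bj held 5 CCAAT matches and none of the other motifs. The stretch between Hist1h2ac and Hist1h2bc held 3 CCAAT matches, 1 TATAAA match and 1 octamer. Neither H4 window held CCAAT, and each held 1 TATAAA match. A promoter window was found for 53 of the 58 genes. In the 250 bases before the start, CCAAT occurred in 45 of these 53 windows, against 33.8% of 32851 windows of all mouse genes. All 6 H1, all 14 H2A, all 14 H2B and all 8 H3 windows held CCAAT, whereas 3 of 11 H4 windows did. The octamer occurred in 6 of 14 H2A windows and 6 of 14 H2B windows, in no other class, and in 1.60% of all windows. Windows of head-to-head H2A and H2B neighbours can overlap, and both strands were searched. A single site can thus count in both classes, and the windows are not all separate sequences. AAACACA occurred in 5 of 6 H1 windows and in 6.25% of all windows, and TATAAA occurred in 26 of the 53 and in 12.4% of all windows. These matches describe letters and are not evidence of binding.

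The 9 libraries held 5646299 to 15023771 counts. Clustered histone genes took 107 to 124 CPM (counts scaled to an equal library total, here with no further scaling) in iOB, 91.1 to 101 in calvarial-OB and 168 to 180 in fibroblasts, so each library rests on 658 to 2380 histone counts. The 3 genes with the most histone counts held 52.5% to 69.3% of those counts in each library. In iOB libraries 15 to 22 of the 58 genes had no count, against 4 to 10 in calvarial-OB and 5 to 10 in fibroblasts. Such numbers also depend on depth, which was 5646299 to 8187715 counts in iOB, 8219411 to 15023771 in calvarial-OB and 7634593 to 13367273 in fibroblasts. All 7 osteoblast markers examined, among them the osteocalcin gene Bglap2, were called higher in iOB and in calvarial-OB than in fibroblasts. All 12 macrophage markers examined were called higher as well: their summed level was 2158 to 3505 CPM in iOB, 3547 to 6468 CPM in calvarial-OB and 38.2 to 78.9 CPM in fibroblasts, none was at 0 in any library, and the part of these cells in the histone results was not tested. The precursor ribosomal RNA Rn45s took 2.27% to 10.9% of the counts in fibroblasts and 5.08% to 5.77% in the other libraries, and leaving it out changed no count of histone genes called.

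Summed over all 58 genes, histone RNA was lower in both osteoblast cultures than in fibroblasts. The summed level was 109 ± 8.48 CPM in iOB, 95.8 ± 7.99 CPM in calvarial-OB and 186 ± 9.54 CPM in fibroblasts (SD, n = 3 each; CPM from here on use library sizes scaled by the TMM method). The core histones summed to 98.2, 76.5 and 82.6 CPM in the iOB libraries, 73.9, 78.0 and 71.5 CPM in the calvarial-OB libraries and 130, 121 and 143 CPM in the fibroblast libraries. The linker histones summed to 19.5, 24.3 and 25.0 CPM in iOB, 30.8, 15.7 and 17.6 CPM in calvarial-OB and 50.2, 60.0 and 54.9 CPM in fibroblasts. Every osteoblast culture library was below every fibroblast library in both sums. Linker genes held 16.6%, 24.1% and 23.3% of histone counts in iOB, 29.4%, 16.8% and 19.7% in calvarial-OB and 27.8%, 33.1% and 27.8% in fibroblasts, so that the share overlapped between calvarial-OB and fibroblasts. Nearly all of it was Hist1h1c, since the other 5 linker genes summed to 0.577 ± 0.209 CPM in iOB, 1.54 ± 0.593 CPM in calvarial-OB and 3.65 ± 0.714 CPM in fibroblasts.

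The core classes differed in pattern. H4 genes summed to 3.55 ± 0.218 CPM in iOB, 4.52 ± 2.08 CPM in calvarial-OB and 14.9 ± 1.98 CPM in fibroblasts, and H3 genes to 2.02 ± 0.223, 2.63 ± 1.04 and 5.07 ± 1.62 CPM in the same order of groups. H2B genes summed to 68.6 ± 9.79 CPM in iOB, 36.4 ± 4.24 CPM in calvarial-OB and 87.9 ± 8.13 CPM in fibroblasts. H2A genes summed to 11.6 ± 1.31 CPM in iOB, 30.9 ± 6.00 CPM in calvarial-OB and 23.6 ± 2.04 CPM in fibroblasts. H2A was thus lowest in iOB, and H2B was lowest in calvarial-OB. H2A made up 10.6% of histone counts in iOB, 32.1% in calvarial-OB and 12.7% in fibroblasts, while H2B made up 62.9%, 38.4% and 47.1% in the same order of groups. By library the H2A sum was 33.7, 34.9 and 24.0 CPM in calvarial-OB and 25.8, 23.1 and 21.8 CPM in fibroblasts, which overlapped. The H2A sum in calvarial-OB leaned on Hist1h2ag. Without that gene it was 23.9, 19.5 and 14.6 CPM in calvarial-OB, against 17.8, 18 and 17.1 CPM in fibroblasts, and the libraries overlapped as well.

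**Figure D1:**
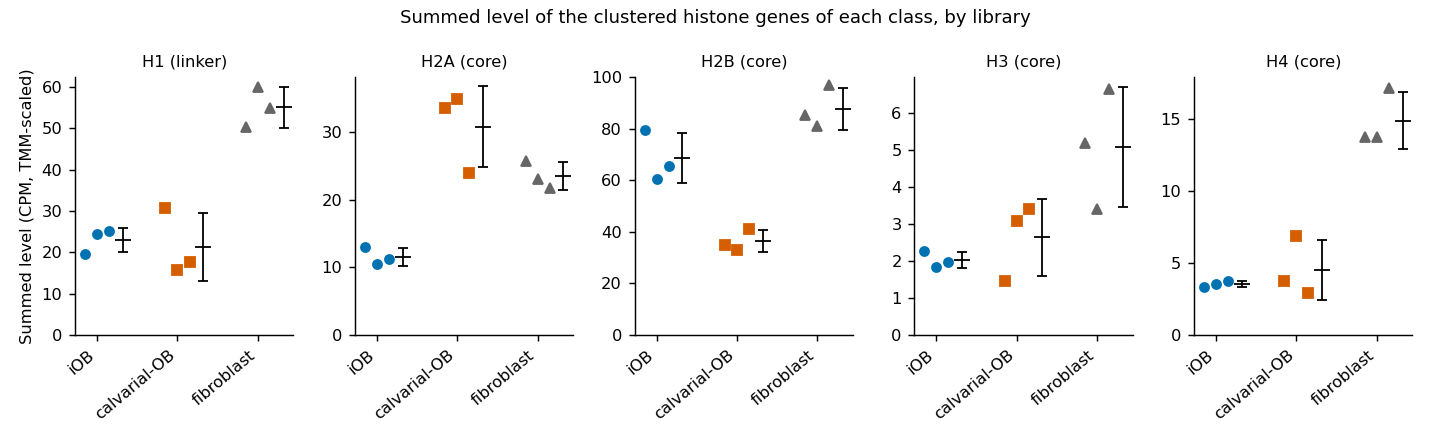
Summed level in CPM (y axis, linear, TMM-scaled) of the clustered histone genes of each class in each library of iOB, calvarial-OB and fibroblasts; bars give the mean and SD of 3 libraries. H1, H3 and H4 have lower means in both osteoblast cultures, H2A is lowest in iOB at 11.6 CPM and H2B is lowest in calvarial-OB at 36.4 CPM.

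Tests were run with edgeR's quasi-likelihood method on 13438 genes with enough counts, and a gene was called at a Benjamini-Hochberg adjusted p below 0.05 over all of them. Of the 58 histone genes 18 passed the filter on low counts, 17 core genes (6 H2A, 7 H2B, 1 H3 and 3 H4) and 1 linker gene, Hist1h1c. The other 40 had 3 to 77 counts over all 9 libraries. The filter asked for at least 1.22 CPM in at least 3 libraries: 7 genes met this in all 9 libraries and 3 (Hist1h2bl, Hist1h4i and Hist2h2be) in some libraries of every group. Hist1h2ac, Hist1h2ad, Hist1h2ae and Hist1h2ah met it in no iOB library, Hist1h2ae in calvarial-OB alone. Hist1h2bn and Hist2h3b met it in no calvarial-OB library, and Hist1h4h and Hist1h4n met it in fibroblasts only. Those 8 entered the test only through the groups in which they were high, so the counts of called genes describe the genes tested and not all members.

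In iOB against fibroblasts 9 of the 18 tested histone genes were called lower and 0 higher; of all genes tested 20.6% were called lower and 22.7% higher. At an unadjusted edgeR p below 0.05 there were 10, all lower. Of all 13438 genes tested 6794 reached this in either direction, so the 10 of 18 were near that share. DESeq2 called 7 lower and 0 higher, and its share over all genes was not taken. The genes called by edgeR were Hist1h1c, 5 of 6 H2A genes and all 3 H4 genes, while 0 of 7 H2B genes and 0 of 1 H3 gene were called. Of these, Hist1h2ac, Hist1h2ad, Hist1h2ah, Hist1h4h and Hist1h4n met the filter level in no iOB library. All 18 fold changes were negative, with a median log2 fold change of -0.83, against -0.04 over all genes tested. In calvarial-OB against fibroblasts 11 of 18 were called lower and 2 higher, where 27.4% and 28.4% of all genes tested were called. The lower genes were Hist1h1c, 1 of 6 H2A genes, 6 of 7 H2B genes and all 3 H4 genes, and both higher genes encode H2A. Of the lower genes Hist1h2bn, Hist1h4h and Hist1h4n met the filter level in no calvarial-OB library. The higher gene Hist1h2ae met it in calvarial-OB alone. The median was -1.29, against 0.02 over all genes tested. In both comparisons the counts called, by class or in all, and the medians are thus description and not support for a class difference. With no filter all 58 members could be tested: 15 were lower and 0 higher in iOB, where 14.1% and 18.6% of 17982 genes were called, and 12 were lower and 2 higher in calvarial-OB, where 21.1% and 23.4% were. The lower count in calvarial-OB was then near the share over all genes. The genes this added to the lower calls were Hist1h1b, Hist1h1d, Hist1h1e, Hist1h2ab, Hist1h3d, Hist1h4a and Hist2h2bb in iOB, and Hist1h1d and Hist1h3d in calvarial-OB, all of them below the filter. Hist1h2ac in iOB (edgeR adjusted p = 0.0514) and Hist3h2a in calvarial-OB (0.0581) were no longer called in it. Both comparisons use the same fibroblast libraries, so they are given side by side and not as independent of each other.

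In iOB against calvarial-OB 5 of 18 were called higher and 5 lower, near the 24.7% and 24.1% of all genes tested, so neither count stood out. All 5 higher genes encode H2B (Hist1h2bc, Hist1h2be, Hist1h2bg, Hist1h2bk and Hist1h2bl) and all 5 lower genes encode H2A (Hist1h2ac, Hist1h2ad, Hist1h2ae, Hist1h2ag and Hist1h2ah). Of the lower genes all but Hist1h2ag met the filter level in no iOB library, so they passed only through the groups in which they were high. Their lower calls and the H2A median are thus description and not support for a class difference. The tested H2B genes had a median log2 fold change of 1.06 and the tested H2A genes of -1.51. The other tested H2A and H2B genes, Hist3h2a, Hist2h2be and Hist1h2bn (log2 fold change 1.31, edgeR adjusted p = 0.0798), were not called in this comparison. With no filter 4 members were higher and 7 lower, where 20% and 17.7% of all genes were called, and the lower ones then included Hist1h2an and Hist1h4a, while Hist1h2bl was no longer called (edgeR adjusted p = 0.0521).

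**Figure D2:**
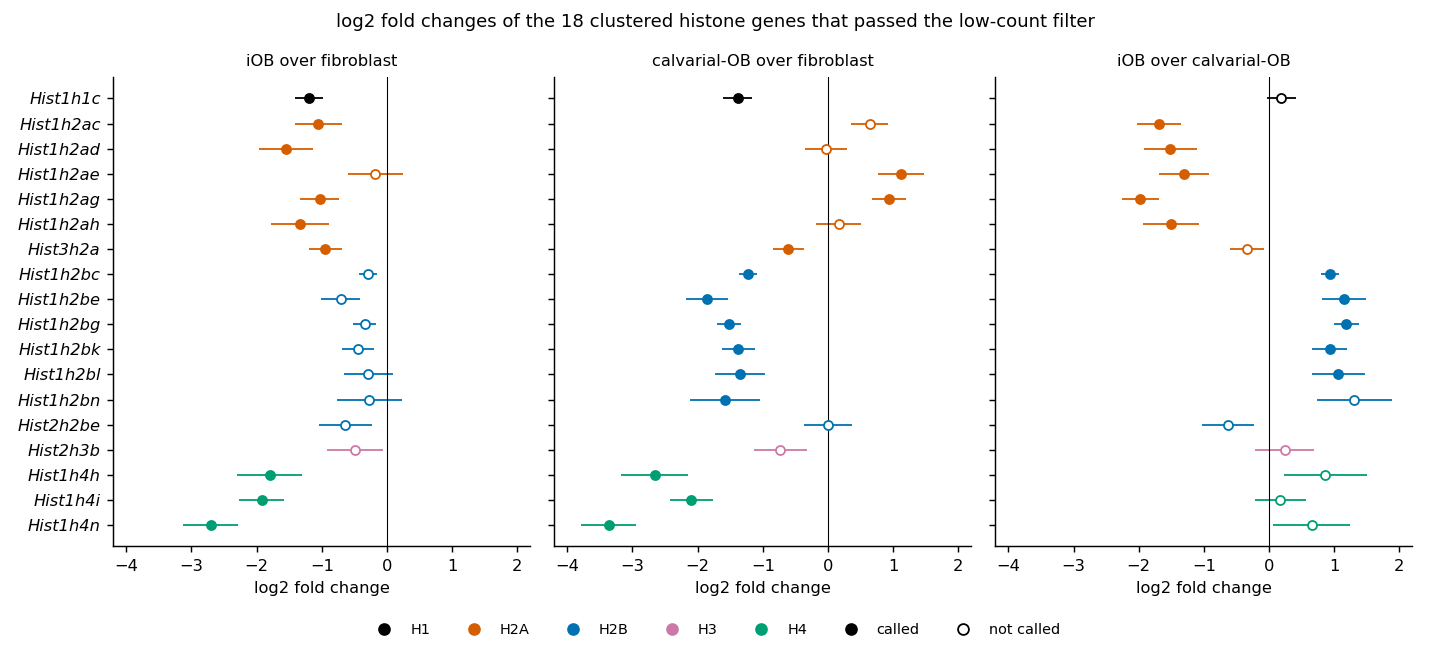
log2 fold change (x axis) with its SE of the 18 tested histone genes (y axis) in iOB over fibroblast, calvarial-OB over fibroblast and iOB over calvarial-OB; colour gives the class and filled points were called by edgeR at an adjusted p below 0.05. H4 genes lie at -1.80 or below in both comparisons with fibroblasts, and in iOB over calvarial-OB the called H2B genes lie right of 0 and the called H2A genes left of it.

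Hist1h1c, which encodes the linker histone H1.2, was the only linker gene with enough counts to test. It had 19.1, 23.9 and 24.2 CPM in iOB, 28.8, 14.8 and 15.8 CPM in calvarial-OB and 46.6, 57.1 and 50.5 CPM in fibroblasts. Each osteoblast culture library was below all fibroblast libraries. The log2 fold change was -1.20 (SE 0.22, edgeR adjusted p = 0.000947) in iOB and -1.39 (SE 0.22, edgeR adjusted p = 0.000204) in calvarial-OB against fibroblasts. Between iOB and calvarial-OB it was 0.19 (SE 0.23, edgeR adjusted p = 0.519), and it was called at 0.59 (edgeR adjusted p = 0.00467) without calvarial-OB replicate 1, the library in which the gene was highest. Of the other linker genes, Hist1h1d had 0.302, 0.115 and 0.164 CPM in iOB, 0.969, 0.245 and 0.716 CPM in calvarial-OB and 1.98, 0.991 and 1.83 CPM in fibroblasts, and Hist1h1b had no count in any iOB library, 8 counts in calvarial-OB and 13 in fibroblasts.

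Among the 18 tested genes the H4 genes had the lowest fold changes against fibroblasts, though Hist1h4h and Hist1h4n passed the filter through fibroblasts alone, and with no filter the linker genes Hist1h1b and Hist1h1d were called lower in iOB with fitted fold changes below those of all 3. The H4 genes encode the same protein, so reads may be shared between copies and the value of a single copy is uncertain. Hist1h4i had 2.12, 1.49 and 1.64 CPM in iOB, 2.06, 2.08 and 0.781 CPM in calvarial-OB and 5.65, 7.08 and 7.14 CPM in fibroblasts, so that the fibroblast libraries stood above all others. Its log2 fold change against fibroblasts was -1.92 (SE 0.34, edgeR adjusted p = 0.000766) in iOB and -2.09 (SE 0.33, edgeR adjusted p = 0.000214) in calvarial-OB. Hist1h4n had 0.454, 0.459 and 0.491 CPM in iOB, from 3 or 4 counts per library, 0.363, 0.490 and 0.130 CPM in calvarial-OB and 3.77, 2.41 and 3.07 CPM in fibroblasts. The groups did not overlap with fibroblasts, and the log2 fold change was -2.70 (SE 0.42, edgeR adjusted p = 0.000273) in iOB and -3.36 (SE 0.42, edgeR adjusted p = 3.37e-05) in calvarial-OB. Hist1h4h had 0.605, 0.917 and 0.654 CPM in iOB, 0, 0.613 and 0.521 CPM in calvarial-OB and 2.07, 2.69 and 3.07 CPM in fibroblasts. The fold change of Hist1h4h on the log2 scale was -1.80 (SE 0.49, edgeR adjusted p = 0.0112) in iOB and -2.66 (SE 0.51, edgeR adjusted p = 0.000821) in calvarial-OB, and the call in iOB was lost without fibroblast replicate 3 (-1.62, edgeR adjusted p = 0.0508). None of the 3 tested H4 genes was called between iOB and calvarial-OB.

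Among the 6 tested H2A genes Hist1h2ag had the largest fold change between the osteoblast cultures; Hist1h2an, below the filter, had a larger fitted one with no filter (-2.72, edgeR adjusted p = 0.0125). It had 2.72, 2.64 and 3.44 CPM in iOB, 9.81, 15.4 and 9.37 CPM in calvarial-OB and 8.01, 5.10 and 4.73 CPM in fibroblasts, and no libraries of different groups overlapped. Its log2 fold change was -1.03 (SE 0.30, edgeR adjusted p = 0.0157) in iOB against fibroblasts, 0.94 (SE 0.26, edgeR adjusted p = 0.00841) in calvarial-OB against fibroblasts and -1.97 (SE 0.29, edgeR adjusted p = 0.000183) in iOB against calvarial-OB. The call in iOB against fibroblasts was lost without fibroblast replicate 1 (-0.75, edgeR adjusted p = 0.0718), iOB replicate 1 (-0.99, edgeR adjusted p = 0.0501) or iOB replicate 2 (-0.96, edgeR adjusted p = 0.0609). Hist1h2ae was also higher in calvarial-OB, with 1.06, 0.688 and 0.654 CPM in iOB, 2.66, 1.84 and 1.56 CPM in calvarial-OB and 0.754, 0.850 and 1.08 CPM in fibroblasts. The log2 fold change in calvarial-OB against fibroblasts was 1.12 (SE 0.35, edgeR adjusted p = 0.0164), and it was not called without fibroblast replicate 1 (edgeR adjusted p = 0.0653), fibroblast replicate 2 (0.0501) or calvarial-OB replicate 1 (0.0565). Against iOB the fold change of Hist1h2ae was -1.30, lost without iOB replicate 2 (edgeR adjusted p = 0.0642) or iOB replicate 3 (0.0547).

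Hist1h2ad had 0.907, 0.688 and 0.491 CPM in iOB, 2.66, 2.33 and 1.30 CPM in calvarial-OB and 2.17, 2.27 and 1.83 CPM in fibroblasts. It was lower in iOB than in fibroblasts (log2 fold change -1.55, SE 0.41, edgeR adjusted p = 0.00912) and than in calvarial-OB (-1.52, SE 0.41, edgeR adjusted p = 0.00932), and calvarial-OB and fibroblast libraries overlapped. Hist1h2ah was also called lower in iOB than in fibroblasts (-1.34, SE 0.44, edgeR adjusted p = 0.0278). That call was lost without fibroblast replicate 1 (edgeR adjusted p = 0.0694) or 2 (0.0860) or iOB replicate 1 (0.0848) or 2 (0.132). Hist1h2ac had 0.907, 0.803 and 0.818 CPM in iOB, 2.66, 3.19 and 2.47 CPM in calvarial-OB and 2.26, 1.70 and 1.33 CPM in fibroblasts. In iOB against calvarial-OB its log2 fold change was -1.69 (SE 0.34, edgeR adjusted p = 0.00148). In iOB against fibroblasts it was -1.05 (edgeR adjusted p = 0.0310), a call lost when fibroblast replicate 1 or 2 or any 1 iOB library was left out, at edgeR adjusted p of 0.125, 0.0674, 0.0666, 0.0995 and 0.0836 in that order. In calvarial-OB against fibroblasts it was 0.64 (edgeR adjusted p = 0.0746) and was called without fibroblast replicate 1 (0.88, edgeR adjusted p = 0.0453). Hist3h2a, an H2A gene of a small cluster on chromosome 11, went another way: it had 4.84, 3.21 and 3.27 CPM in iOB, 6.42, 4.17 and 3.84 CPM in calvarial-OB and 6.97, 7.65 and 7.14 CPM in fibroblasts. It was lower in iOB (log2 fold change -0.94, SE 0.26, edgeR adjusted p = 0.0107; 0.0529 without iOB replicate 2). Its fold change in calvarial-OB was -0.61 at an edgeR adjusted p of 0.0490, a call lost when any 1 fibroblast library, calvarial-OB replicate 2 or 3, or iOB replicate 2 or 3 was left out, at 0.0581 to 0.179.

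Of the 7 tested H2B genes 5 were lower in calvarial-OB than in both other groups. Hist1h2bc had 47.5, 36.6 and 37.1 CPM in iOB, 19.7, 18.9 and 24.2 CPM in calvarial-OB and 50.9, 45.0 and 51.9 CPM in fibroblasts. The iOB and fibroblast libraries overlapped and every calvarial-OB library was below both. Its log2 fold change was -0.29 (SE 0.14, edgeR adjusted p = 0.111) in iOB and -1.23 (SE 0.14, edgeR adjusted p = 1.61e-05) in calvarial-OB against fibroblasts, and 0.94 (SE 0.14, edgeR adjusted p = 0.000226) in iOB against calvarial-OB. Without iOB replicate 1 the first of these was called lower (-0.42, edgeR adjusted p = 0.0412). Hist1h2bg had 9.53, 9.40 and 12.4 CPM in iOB, 5.09, 4.66 and 4.10 CPM in calvarial-OB and 12.1, 15 and 12.6 CPM in fibroblasts, the same order of groups. The log2 fold change of Hist1h2bg was -0.34 (SE 0.18, edgeR adjusted p = 0.140) in iOB and -1.52 (SE 0.18, edgeR adjusted p = 2.49e-05) in calvarial-OB against fibroblasts, and 1.18 (SE 0.19, edgeR adjusted p = 0.000335) between the osteoblast cultures.

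Hist1h2be had 6.05, 2.75 and 4.09 CPM in iOB, 1.57, 2.08 and 2.02 CPM in calvarial-OB and 5.75, 5.81 and 9.13 CPM in fibroblasts. The spread within iOB was wide for this gene, and 1 iOB library reached the fibroblast range. The log2 fold change of Hist1h2be was -0.71 (SE 0.30, edgeR adjusted p = 0.0771) in iOB and -1.86 (SE 0.32, edgeR adjusted p = 0.000373) in calvarial-OB against fibroblasts, and 1.15 (SE 0.34, edgeR adjusted p = 0.0151) in iOB against calvarial-OB. Without iOB replicate 1 the first was called (-1.05, edgeR adjusted p = 0.0260) and the third was not (0.82, edgeR adjusted p = 0.0843). Hist1h2bk had 7.26, 5.50 and 4.25 CPM in iOB, 3.39, 2.21 and 3.26 CPM in calvarial-OB and 6.88, 6.94 and 9.29 CPM in fibroblasts. In calvarial-OB against fibroblasts its log2 fold change was -1.37 (SE 0.26, edgeR adjusted p = 0.000692), and in iOB against calvarial-OB it was 0.93 (SE 0.27, edgeR adjusted p = 0.0133), a call lost without iOB replicate 1 (edgeR adjusted p = 0.0664). Hist1h2bl, with 0.986 CPM on average in calvarial-OB against 2.64 CPM in fibroblasts, was lower there (-1.35, edgeR adjusted p = 0.0107) but not past the threshold once fibroblast replicate 3 was left out (0.0692). In iOB against calvarial-OB it lay at the threshold (1.06, edgeR adjusted p = 0.0496), and leaving out fibroblast replicate 1, calvarial-OB replicate 1 or 2, or any 1 iOB library ended the call, at 0.0522 to 0.155. Hist1h2bn was called lower in calvarial-OB than in fibroblasts (-1.58, SE 0.53, edgeR adjusted p = 0.0244), though the libraries overlapped. That call was lost without fibroblast replicate 3 (edgeR adjusted p = 0.158), calvarial-OB replicate 1 (0.0532) or calvarial-OB replicate 2 (0.0694). Hist2h2be, from the cluster on chromosome 3, had a log2 fold change of 0.00 in calvarial-OB against fibroblasts (SE 0.37, edgeR adjusted p = 0.993).

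Of the H3 genes, Hist2h3b alone passed the filter. It had 1.51, 1.03 and 0.327 CPM in iOB, 0.969, 0.735 and 0.781 CPM in calvarial-OB and 1.41, 1.27 and 1.41 CPM in fibroblasts. The iOB libraries spanned both other groups, the fibroblast libraries stood above those of calvarial-OB, and it was not called in any comparison (edgeR adjusted p = 0.379 in iOB and 0.150 in calvarial-OB against fibroblasts). At these counts a difference in most H3 genes was not detectable.

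**Figure D3:**
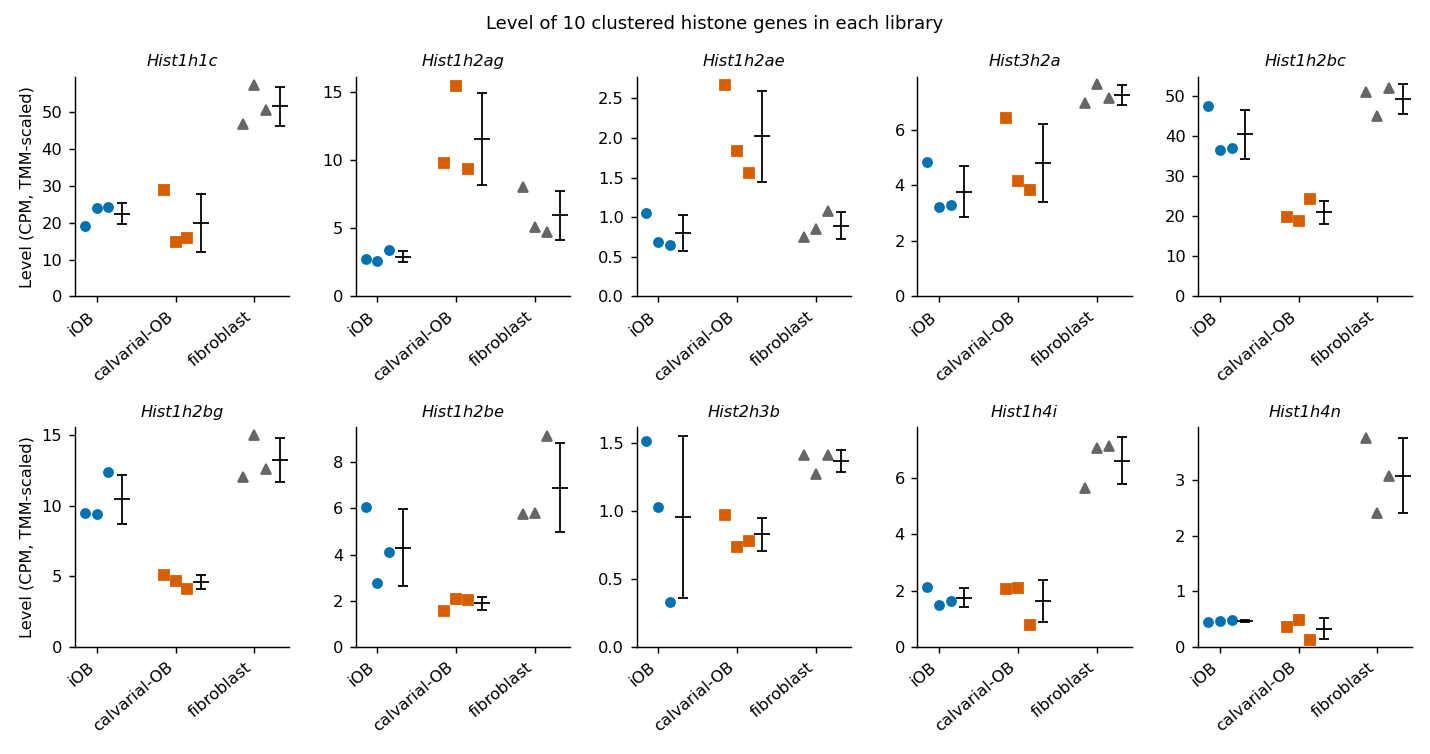
Level in CPM (y axis, linear, TMM-scaled, a scale of its own for each gene) of 10 histone genes in each library of iOB, calvarial-OB and fibroblasts; bars give the mean and SD of 3 libraries. Hist1h4i and Hist1h4n are low in both osteoblast cultures, Hist1h2ag is highest in calvarial-OB with 9.37 to 15.4 CPM, and Hist1h2bc is lowest in calvarial-OB with 18.9 to 24.2 CPM.

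The head-to-head arrangement allows H2A and H2B to be set against each other within a locus and within a library, so that library size does not enter. In GRCm38.p6, 9 pairs of members face away from each other with at most 400 bases between them. Over all 9 pairs H2A took 9.47%, 10.4% and 10.5% of the pair counts in iOB, 43.4%, 49.9% and 33.2% in calvarial-OB and 18.5%, 15.6% and 13.3% in fibroblasts. The 3 groups did not overlap, but this pooled share also depends on how many counts each pair gave. The mostly H2A pair of Hist1h2ag and Hist1h2bj gave 77 of 1484 counts in iOB, 376 of 1808 in calvarial-OB and 213 of 2803 in fibroblasts. Without the pair of Hist1h2ac and Hist1h2bc, which holds the most counts, the shares were 21.8 ± 0.699% in iOB, 63.3 ± 8.11% in calvarial-OB and 30.7 ± 5.46% in fibroblasts (SD, n = 3 each).

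The mean H2A share was higher in calvarial-OB than in fibroblasts in 9 of 9 pairs, and the libraries did not overlap in 6 of these. For comparison, among 590 other head-to-head gene pairs with at least 94 counts the share of one gene did not overlap, in either direction, in 47.8% between these groups. The 94 counts are the total of the lowest histone pair. The other pairs were thus matched to the histone pairs at this minimum only and not in depth. In iOB against calvarial-OB the H2A share was lower without overlap in 6 of 9 pairs, where 43.2% of other pairs did not overlap. In iOB against fibroblasts it was lower without overlap in 1 of 9 pairs, where 44.7% of other pairs did not overlap. The iOB mean was above the fibroblast mean in 2 of 9 pairs. In the direction opposite to the one given, 0 of 9 histone pairs were without overlap in each of the 3 comparisons. The pair with Hist1h2ae and Hist1h2bg had an H2A share of 10%, 6.82% and 5.00% in iOB, 34.4%, 28.3% and 27.6% in calvarial-OB and 5.88%, 5.36% and 7.88% in fibroblasts. Here the calvarial-OB libraries stood far above both other groups, which overlapped. In the pair with Hist1h2ac and Hist1h2bc, whose shared stretch is printed above, H2A took 1.88%, 2.15% and 2.16% in iOB, 11.9%, 14.4% and 9.27% in calvarial-OB and 4.26%, 3.64% and 2.50% in fibroblasts. In the pair with Hist1h2ag and Hist1h2bj H2A predominated throughout, at 72%, 79.3% and 91.3% in iOB, 93.1%, 96.2% and 91.1% in calvarial-OB and 87.6%, 80% and 80.3% in fibroblasts. Some pairs rest on few counts: Hist1h2an and Hist1h2bp had 11 in all iOB libraries together.

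**Figure D4:**
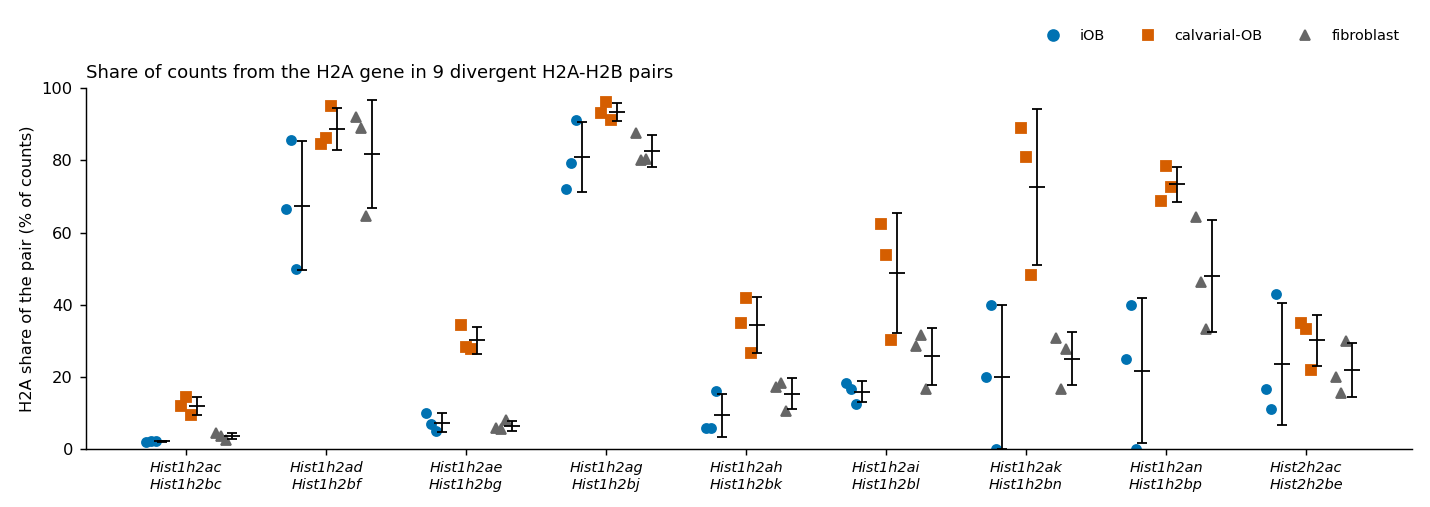
Share of the counts of a head-to-head pair that came from its H2A gene (y axis, percent) for 9 pairs, with a point for each library of iOB, calvarial-OB and fibroblasts and bars for the mean and SD of 3 libraries. The calvarial-OB mean is above the fibroblast mean in all 9 pairs, as in the pair with Hist1h2ae and Hist1h2bg at 30.1% against 6.37%.

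Since calvarial-OB form dataset 2, RNAs known to lack a standard poly-A tail were read beside this pattern. Of 5 such RNAs 4 were tested. Rmrp, the RNA of a ribonuclease that processes ribosomal RNA, had 1.21, 2.18 and 0.818 CPM in iOB, 5.09, 3.80 and 3.78 CPM in calvarial-OB and 2.07, 0.991 and 1.49 CPM in fibroblasts. It was higher in calvarial-OB than in fibroblasts (log2 fold change 1.42, edgeR adjusted p = 0.00418), as was the nuclear RNA Malat1 (0.38, edgeR adjusted p = 0.0407; not called when fibroblast replicate 2 or 3, any 1 calvarial-OB library but replicate 2, or iOB replicate 2 or 3 was left out). None of the 4 was called in iOB against fibroblasts with all libraries, but without fibroblast replicate 1 Rn45s was called lower in iOB (-1.10, edgeR adjusted p = 0.000175; -0.66 and 0.217 with it) and in calvarial-OB (-0.93, edgeR adjusted p = 0.000377; -0.49 and 0.332 with it). Of the 4, 0 were higher and 2 lower in iOB against calvarial-OB. How much the capture of RNAs without a poly-A tail entered the H2A and H2B results was not tested.

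Genes whose products drive histone gene transcription or process histone mRNA gave mixed results. Of 15 tested, 5 were lower and 0 higher in iOB, and 7 were lower and 2 higher in calvarial-OB, both against fibroblasts. Slbp, the stem-loop binding protein, had 28.9, 24.4 and 24.2 CPM in iOB, 30.9, 34.4 and 45.3 CPM in calvarial-OB and 25.4, 24.4 and 28.7 CPM in fibroblasts. Its log2 fold change was -0.02 (edgeR adjusted p = 0.924) in iOB and 0.50 (edgeR adjusted p = 0.0148) in calvarial-OB, and the call in calvarial-OB was lost without fibroblast replicate 2 (edgeR adjusted p = 0.0531). Npat, the coactivator of histone gene transcription, was lower in both, at -0.45 (edgeR adjusted p = 0.0198) in iOB and -0.76 (edgeR adjusted p = 0.000512) in calvarial-OB. Its call in iOB was lost without fibroblast replicate 1 (edgeR adjusted p = 0.0577) or 2 (0.0868) or iOB replicate 2 (0.0501) or 3 (0.0809). Casp8ap2, also known as FLASH and needed for histone pre-mRNA cleavage, fell by 0.71 in iOB (edgeR adjusted p = 0.00102) and by 0.45 in calvarial-OB on the log2 scale.

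Most histone genes outside the clusters make replication-independent variants with ordinary poly-A tails; H2afx, which also makes a stem-loop transcript, is an exception. Of 11 tested, 5 were lower and 0 higher in iOB, while 0 were lower and 4 higher in calvarial-OB, both against fibroblasts, and 10 were lower in iOB than in calvarial-OB. One of the lower calls in iOB, H3f3b (-0.38, edgeR adjusted p = 0.0463), was lost in 12 of 16 alternatives, among them RLE and upper-quartile scaling, no filter, the replicate block, DESeq2 and leaving out any 1 iOB or fibroblast library, with adjusted p up to 0.183. H1fx, a linker variant, had 1.97, 2.87 and 2.13 CPM in iOB, 8.84, 5.27 and 5.79 CPM in calvarial-OB and 7.54, 7.51 and 8.13 CPM in fibroblasts, and its log2 fold change in iOB against fibroblasts was -1.71 (edgeR adjusted p = 0.000251). Cenpa, the histone of the centromere, changed by -1.61 and H2afx, the variant phosphorylated at DNA breaks, by -0.97 in iOB against fibroblasts. The 4 higher in calvarial-OB were H1f0 (0.87), H2afz (0.55), H3f3a (0.52) and H3f3b (0.64). Of 12 histone chaperones 8 were lower and 0 higher in iOB and 3 lower and 1 higher in calvarial-OB; Asf1b, a chaperone of H3 and H4, was at -1.38 in iOB (edgeR adjusted p = 0.00336), and Nasp, which binds H3 and H4 and also H1, was the higher one in calvarial-OB at 0.72.

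Genes of proliferating cells were lower mainly in iOB. All 14 mitosis genes tested were lower in iOB than in fibroblasts, with a median log2 fold change of -2.21, and 5 of 14 were lower in calvarial-OB, with a median of -0.49. Mki67, the gene of the Ki-67 antigen of cycling cells, had 34.3, 52.5 and 43.2 CPM in iOB, 107, 156 and 151 CPM in calvarial-OB and 160, 203 and 237 CPM in fibroblasts. Of 22 DNA replication genes 10 were lower and 1 higher in iOB and 3 lower and 4 higher in calvarial-OB; Mcm6, a subunit of the replicative helicase, was at -1.13 in iOB (edgeR adjusted p = 0.000548) and 0.32 in calvarial-OB (edgeR adjusted p = 0.158). All 14 mitosis genes were also lower in iOB than in calvarial-OB. The mean histone sum was 109 CPM in iOB and 95.8 CPM in calvarial-OB, and the classes differed. H2B was higher in iOB (68.6 against 36.4 CPM), as was the mean of H1 (23.0 against 21.3 CPM). H2A was lower in iOB (11.6 against 30.9 CPM), as were the means of H3 (2.02 against 2.63 CPM) and H4 (3.55 against 4.52 CPM). The libraries overlapped in H1, H3 and H4. The part of proliferation in the histone results was not tested.

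The authors' deposited tables add the reporter-sorted cells. In the authors' deposited table for iOB GFP+ against fibroblasts 58 clustered histone genes are listed, 57 with an adjusted p, of which 11 were lower and 0 higher at an adjusted p below 0.05, where 21.7% and 23.7% of all genes in it were called. The lower count there was not above the share over all genes. That table lists Hist2h2ab and Hist3h2bb-ps, and lacks Hist1h2ao and Hist3h2ba, relative to the count table. In the authors' deposited table for iOB against fibroblasts 51 had an adjusted p, of which 12 were lower and 0 higher, where 15% and 19.9% of all genes were called. The 2 tables share the fibroblast group, the libraries behind the iOB GFP+ table are not in the count table, and how its fold changes were scaled is not stated.

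By class, the authors' deposited table for iOB GFP+ called 2 of 6 H1, 1 of 14 H2A, 4 of 15 H2B, 1 of 10 H3 and 3 of 12 H4 genes lower, and their table for iOB called 4 of 5 H1, 3 of 12 H2A, 0 of 15 H2B, 1 of 9 H3 and 4 of 10 H4 genes lower. The class counts for iOB GFP+ divide a lower count near the share over all genes, so they are description only. Hist1h2bc stood at -0.82 (SE 0.11, adjusted p = 4.72e-12) in iOB GFP+ and at -0.26 (SE 0.16, adjusted p = 0.200) in iOB in the authors' deposited tables; the difference between them was not tested. Hist1h2be was at -0.92 (adjusted p = 0.0299) in iOB GFP+ and -0.65 (adjusted p = 0.123) in iOB in the authors' deposited tables. Hist1h4n was at -2.63 (SE 0.55, adjusted p = 8.24e-06) in iOB GFP+ and -2.39 (SE 0.54, adjusted p = 7.17e-05) in iOB in the authors' deposited tables, and Hist1h4i at -1.17 and -1.80. Hist1h1c was at -0.81 (adjusted p = 1.61e-06) and -1.15 (adjusted p = 5.69e-06) in the same order of the authors' deposited tables. Hist1h4n and Hist1h1c were therefore called lower in both tables, and Hist1h4i had a negative fold change in both. All 14 mitosis genes were lower in both of the authors' deposited tables. For 11 of the 12 macrophage genes the authors' deposited table for iOB GFP+ gives no adjusted p, and all 12 have positive fold changes there.

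**Figure D5:**
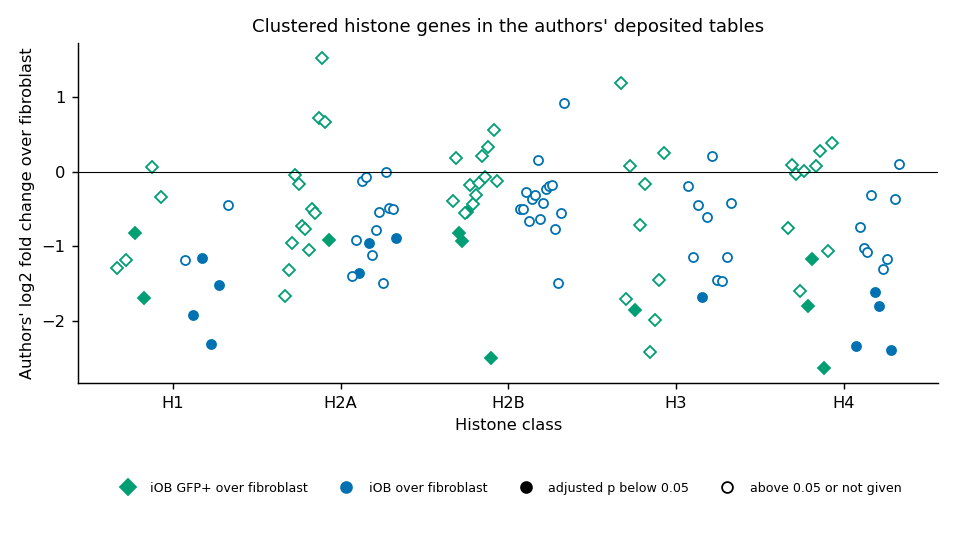
The authors' log2 fold change over fibroblasts (y axis) of each clustered histone gene in their deposited tables for iOB GFP+ (green diamonds) and iOB (blue circles), by histone class (x axis); filled symbols had an adjusted p below 0.05 in that table. The filled symbols all lie below 0, and in H2B they occur in iOB GFP+ alone.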

How the data were processed

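RNA was sequenced after poly-A selection in 9 libraries. STAR 2.4.2a, Bowtie2, DESeq2, R 3.2.2 and mm9 appear in the submitters' processing notes, with no role for each. How reads were assigned to genes, and whether strand was used, is not given in the sources used here, so reads of near-identical histone copies or of antisense partners may be misplaced. The authors deposited raw counts per gene symbol; its OB columns were read as calvarial-OB. In the authors' deposited result tables, per the file headers, each gene has a base mean (signal), a log2 fold change and SE, a statistic (score), and a raw and an adjusted p-value. The methylation windows were not used, since no annotation of their build was at hand.

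The 9 libraries were fitted together with edgeR 4.0.16 (glmQLFit and glmQLFTest, R 4.3.3, limma 3.58.1) with TMM scaling, filterByExpr (a minimum count of 10 at the median library size in 3 libraries and a total of 15) and group as the only term. The SE is the absolute log2 fold change over the square root of the F statistic, and the common biological coefficient of variation was 14.8%. The fit was tested on simulated data. Alternatives were RLE and upper-quartile scaling, no filter, no Rn45s, only the 2 groups compared, a replicate block, DESeq2 1.42.0 and leaving out each library. Neighbours, pairs, promoter windows and motifs were read with Python 3.11.15 and pandas 2.3.3; figures used matplotlib 3.10.9. RefSeq coordinates of GRCm38.p6 served to find neighbours and to place the printed sequences, and were not joined to the counts by position.

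Members, gene lists and tests were chosen with earlier results of these data known. Values are given for the 3 tested members per class with the highest level, the 3 higher and 3 lower called members with the largest fold change per comparison, up to 3 genes per list, Slbp, and partners in pairs; Hist1h1b, Hist1h1d, Hist1h2an, Hist1h2bn, Hist2h2be, Rmrp, Rn45s, Npat, Nasp and the 4 variants higher in calvarial-OB were named after their values were seen.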

Additional observations from a re-analysis of the deposited data

How the results depend on the processing

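The count of histone genes lower in iOB than in fibroblasts was 9; it was 15 with no filter on low counts, where all 58 members were tested, 0 were higher, and 14.1% of all genes were called lower. The genes added without the filter were Hist1h1b, Hist1h1d, Hist1h1e, Hist1h2ab, Hist1h3d, Hist1h4a and Hist2h2bb, while Hist1h2ac was lost. The count lower in calvarial-OB than in fibroblasts was 11, and 12 of 58 with no filter, near the 21.1% of all genes then called lower. The count higher in calvarial-OB than in fibroblasts was 2, and 1 with DESeq2, which did not call Hist1h2ae. With 1 library left out at a time, the count lower in iOB than in fibroblasts ranged from 6 to 13, lower in calvarial-OB than in fibroblasts from 8 to 14, higher in calvarial-OB than in fibroblasts from 1 to 2, higher in iOB than in calvarial-OB from 2 (without iOB replicate 1) to 6, and lower in iOB than in calvarial-OB from 5 to 7. The count higher in iOB than in fibroblasts was 0 in every alternative run. For DESeq2 and the runs with 1 library left out, the share over all genes was not taken. The genes that passed the filter also changed when a library was left out. H2A genes lower in iOB than in fibroblasts ranged from 1 of 8 (without iOB replicate 2) to 6 of 8 (without fibroblast replicate 3). DESeq2 called 3 of 6 H2A genes lower there. No result changed sign while called. Upper-quartile scaling moved the median log2 fold change of all genes to 0.10 in calvarial-OB against fibroblasts and to -0.11 in iOB against calvarial-OB; Hist1h2ac was then called higher in calvarial-OB (edgeR adjusted p = 0.0468) and Hist3h2a was not called lower (0.0866).

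Between libraries with the same replicate number, deviations from the group mean had correlations of -0.16 to 0.15. With 3 libraries per group such values cannot settle whether the numbers mark a shared batch or source, and the labels do not say. With a replicate block the counts were 0 higher and 9 lower in iOB against fibroblasts, 2 higher and 11 lower in calvarial-OB against fibroblasts, and 6 higher and 5 lower in iOB against calvarial-OB, the added gene being Hist1h2bn.

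Depth limits the low genes: 40 of 58 members had at most 77 counts over all libraries, so most H3, H4 and linker genes were read as sums. Intervals and SEs cover counting and library spread and not amplification, as reads were counted without molecular identifiers.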
